A study of Oryza sativa with 20 samples.

Results

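PSK2 and PSK4 encode precursors of phytosulfokine in rice, and their transcripts were followed on 20 Affymetrix rice arrays that cover pollination, fertilization and zygote formation. Both genes were found by their names in the RefSeq gene table, and each was represented by 1 probe set, so 2 of the 57381 probe sets on the array are described, for 2 of the 17905 genes that have a probe set of their own. The probe sets of PSK4 (gene LOC4342304) and PSK2 (gene LOC4349781) were both among the 35470 probe sets bright enough to be tested. Neither carries the suffix by which the manufacturer marks probe sets shared between genes, and the "a" in the name of the PSK2 probe set marks probes shared by several transcripts of the same gene. Both genes were chosen by their relative intensities in these 7 groups, which were already known, so their levels are given as a description and carry no test.

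Phytosulfokine is a short secreted peptide with sulfated tyrosines that acts between plant cells as a growth signal. It is cut from a longer precursor that enters the secretory pathway, where a sulfotransferase modifies the tyrosines and subtilisin-like proteases then release the peptide. In Arabidopsis it is sensed at the cell surface by leucine-rich repeat receptor kinases that pair with co-receptors of the SERK family, and it promotes cell expansion and pollen tube growth. The peptide itself, its sulfation and its release are not read by an RNA array.

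The plants grew in paddy fields, and RNA was read from tissue dissected at set times around pollination. Unpollinated stigma (n = 3) and unpollinated ovary (n = 3) were the references, and stigma (n = 2) and ovary (n = 3) were collected 5 min after pollination. Whole pistils, with stigma and ovary together, were collected 15 to 25 min after pollination (pollen tube growth), 40 to 50 min after it (fertilization) and 5 to 7 h after it (zygote formation), with n = 3 each. Every pollinated sample contained its pollen grains. The labels call the replicates biological without saying whether plants or days differed, so errors measure only the spread between these samples. In a mixed tissue, fewer cells of a type and less RNA per cell cannot be told apart, and between whole pistils and separated tissues a change in level and a change in tissue make-up cannot be told apart either.

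Values are relative intensities on a linear scale on which the 75th percentile of each array is 1. Array medians lay between 0.195 and 0.377, within groups the lowest correlation between 2 arrays was 0.937 over the tested probe sets, and no pair of arrays held identical values. Of the genes listed for carpel, ovule, nucellus and early endosperm, MADS13, MADS21 and MADS29 were higher in unpollinated ovary than in unpollinated stigma. DL, MADS58 and NF-YB1 were higher in the stigma, and the MADS3 arrays overlapped. The ovule identity gene MADS13 read 1.13 to 2.11 in unpollinated stigma and 16.2 to 18.9 in unpollinated ovary, and MADS29, expressed in the nucellus, read 0.123 to 0.157 and 2.59 to 3.37. One library stood apart: 5-min stigma replicate 2 read 3.66 for MADS13 and 1.27 for MADS29, against 0.972 and 0.134 in replicate 1, so values for the pollinated stigma are given for each replicate.

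PSK4 was near the array median before pollination and was 22.4-fold higher in the stigma within 5 min. The 3 unpollinated stigma arrays read 0.282, 0.277 and 0.369, which is 0.975 to 1.17 times the median of their own array. The pollinated stigma arrays read 6.27 (replicate 1) and 7.51 (replicate 2). The difference of log2 means was 4.48 ± 0.23 (SE, n = 2 and 3). The groups lie far apart, with the lower pollinated array well above the highest unpollinated one. Without replicate 2, the library with more ovule signal, the log2 difference was 4.35. In the table as a whole 15.1% of tested probe sets had both pollinated stigma arrays above all unpollinated ones, and 78 of the 35470 (0.22%) showed a larger rise.

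The ovary showed a much smaller rise of PSK4 at the same time. Unpollinated ovaries read 0.382, 0.356 and 0.350, and ovaries at 5 min read 0.702, 0.792 and 0.418. All 3 pollinated ovary arrays were above all 3 unpollinated ones, as for 9.96% of tested probe sets, but replicate 3 was only just above them. The log2 difference was 0.76 ± 0.21 (SE, n = 3 each), or 1.7-fold, and it was 1.04 without ovary replicate 3. Within the compared ovary groups alone the SD was 0.35 on the log2 scale. The change in the stigma exceeded that in the ovary by 3.72 ± 0.31 on the log2 scale (SE), and 17 tested probe sets had a larger excess. Before pollination PSK4 hardly differed between the tissues, with overlapping arrays and a log2 difference of -0.24 ± 0.21 (SE, stigma minus ovary). That difference depends on scaling, as it was between -0.44 and -0.56 under the other 3 scalings.

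In whole pistils PSK4 lay at an intermediate level, with group means of 1.25, 1.47 and 1.63 at the 3 stages. It read 1.31, 1.28 and 1.16 at 15 to 25 min. At 40 to 50 min the arrays read 1.21, 1.38 and 1.81, and at 5 to 7 h they read 1.73, 1.60 and 1.57. These 9 arrays spanned 1.56-fold, from 1.16 to 1.81, above every ovary array at 5 min and below both stigma arrays at 5 min. All pistil arrays were above all unpollinated arrays of either tissue. Such separation was found for 5.62% of tested probe sets at 15 to 25 min, 3.71% at 40 to 50 min and 12.3% at 5 to 7 h.

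Against the unpollinated stigma, the PSK4 log2 differences were 2.03, 2.24 and 2.41 at the 3 pistil stages, and against the unpollinated ovary they were 1.78, 1.99 and 2.17 (SE 0.21 each). From one pistil stage to the next the arrays overlapped. The steps were 0.21 ± 0.21 (SE) from 15 to 25 min to 40 to 50 min, and 0.18 ± 0.21 from there to 5 to 7 h. Each was about as large as its error, and both were upward. In the order of group means the 5-min stigma came first and stood apart. The 3 pistil stages followed, each overlapping with the next, while 5 to 7 h lay above 15 to 25 min without overlap. Then came the 5-min ovary, which overlapped with no other group. Last were the unpollinated ovary and stigma, which overlapped with each other.

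**Figure D1:**
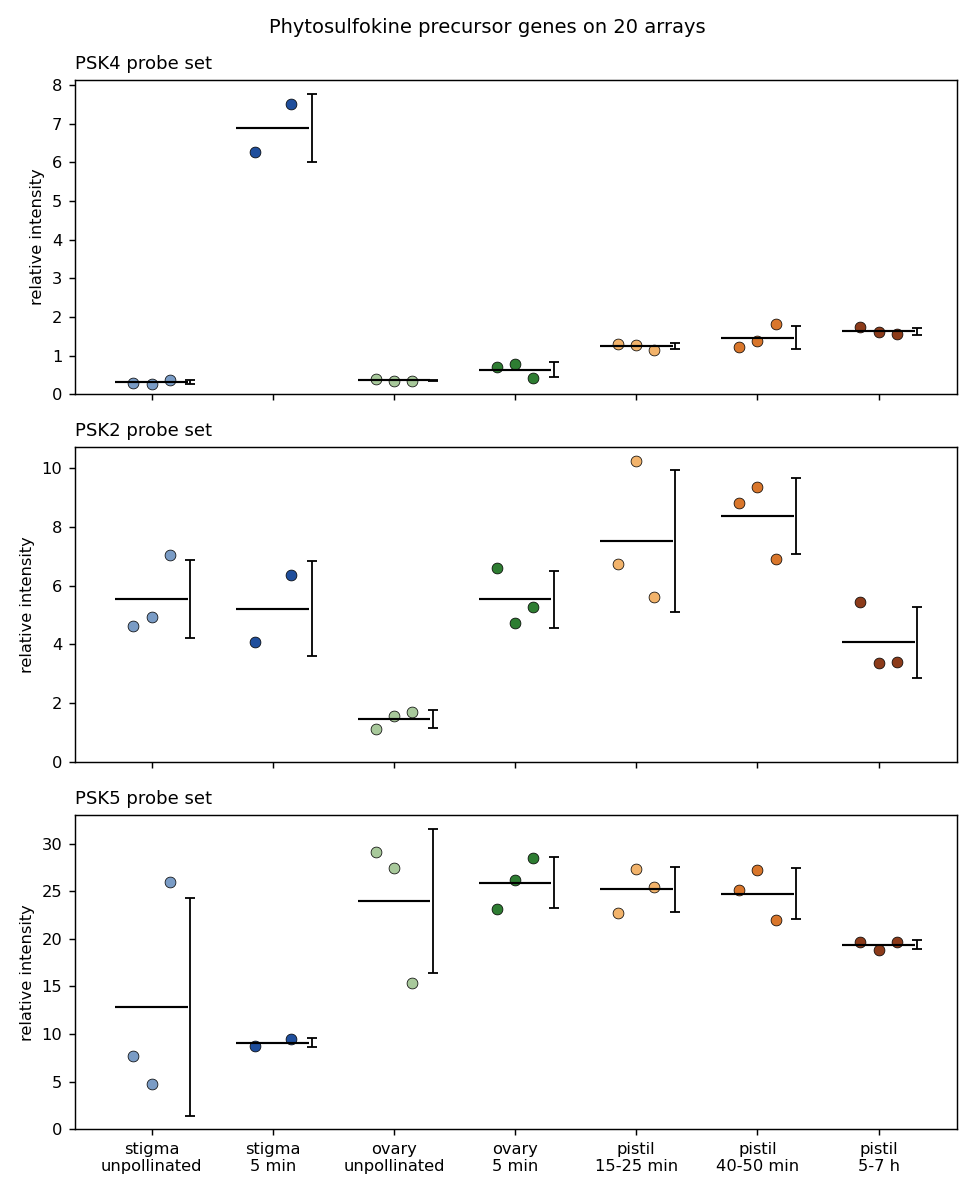
Relative intensity (linear axis, 75th percentile of each array = 1) of the PSK4, PSK2 and PSK5 probe sets in the 7 groups, 1 point per array, with the group mean as a line and the SD as a bar. PSK4 stands out in the 5-min stigma (6.27 and 7.51), PSK2 is lowest in the unpollinated ovary (1.13 to 1.69), and PSK5 is low in most stigma arrays.

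PSK2 followed another course: it was already high in the unpollinated stigma, was low in the unpollinated ovary, and reached the stigma level in the ovary by 5 min. Unpollinated stigmas read 4.62, 4.94 and 7.06. Unpollinated ovaries read 1.13, 1.56 and 1.69. Every stigma array was above every ovary array, as for 27.1% of tested probe sets, and the log2 difference was 1.92 ± 0.26 (SE, n = 3 each), or 3.79-fold. Under median centring this difference was 1.60.

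Ovaries 5 min after pollination read 6.60, 4.73 and 5.26 for PSK2. All were above the unpollinated ovary arrays, as for 9.96% of tested probe sets. The log2 difference was 1.93 ± 0.26 (SE, n = 3 each), or 3.81-fold, and 521 tested probe sets (1.47%) had a larger rise. In the stigma no such rise was seen. The 5-min stigma arrays read 4.08 (replicate 1) and 6.36 (replicate 2) and overlapped with the unpollinated stigma. The log2 difference was -0.10 ± 0.29 (SE), and its sign turned when arrays were scaled on probe sets bright on every array (0.14), without unpollinated stigma replicate 3 (0.09) and without 5-min stigma replicate 1 (0.22). The change in the stigma was below that in the ovary by a log2 difference of -2.03 ± 0.39 (SE), the opposite order to PSK4. At 5 min the stigma and ovary arrays of PSK2 overlapped.

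PSK2 was highest in pistils in the first hour and lower at the zygote stage. It read 6.72, 10.3 and 5.61 at 15 to 25 min, and 8.80, 9.37 and 6.90 at 40 to 50 min. At 5 to 7 h it read 5.46, 3.36 and 3.40. The step between the early stages was 0.19 ± 0.26 on the log2 scale (SE), with overlapping arrays. The step to 5 to 7 h was a log2 difference of -1.06 ± 0.26 (SE, n = 3 each), and all 3 late arrays were below all 3 of the 40 to 50 min stage, as for 21% of tested probe sets.

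Measured against the unpollinated ovary, PSK2 was higher in every pistil array, by log2 differences of 2.34, 2.53 and 1.46 at the 3 stages (SE 0.26 each). The same separation from the unpollinated ovary was found for 14.1%, 11.2% and 20.3% of tested probe sets, and 1.45%, 0.936% and 3.88% had a larger rise. Measured against the unpollinated stigma the arrays overlapped at each stage, with log2 differences of 0.42, 0.61 and -0.46 (SE 0.26 each). In the order of group means, from pistils at 40 to 50 min down to pistils at 5 to 7 h, each group overlapped with the next, and the unpollinated ovary alone stood apart at the bottom. Over all 20 arrays PSK2 spanned 9.08-fold and PSK4 27.1-fold, and neither gene fell to the floor of 0.128 on any array.

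**Figure D2:**
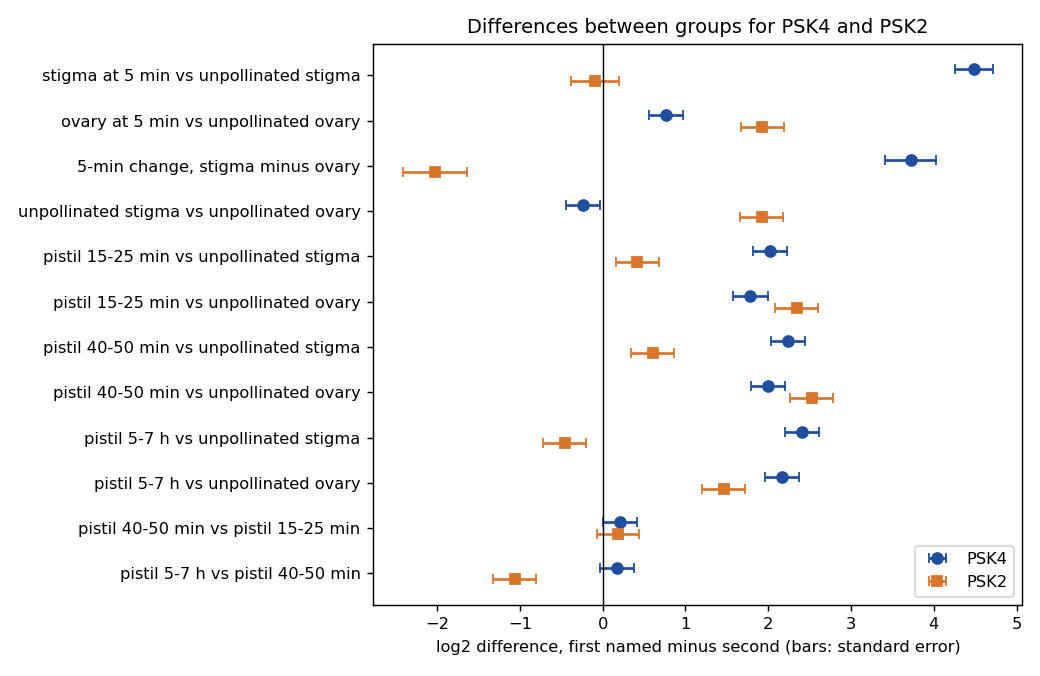
Log2 differences between groups for PSK4 (circles) and PSK2 (squares), first named group minus the second, with standard errors from the fit over all arrays. At 5 min PSK4 differs by 4.48 in the stigma and 0.76 in the ovary, whereas PSK2 differs by -0.10 and 1.93.

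Since pollen was part of each pollinated sample, pollen markers were read on the same arrays. Of 10 pollen genes listed, the naming table holds 2, the beta-expansins EXPB9 and EXPB10 of the group-1 pollen allergen type, which loosen the cell wall. Their summed intensity was 2.80 to 4.93 in unpollinated stigma, 0.264 to 0.671 in unpollinated ovary, 63.5 to 67.9 in the stigma at 5 min and 8.40 to 19.8 in the ovary at 5 min, and neither was at the floor throughout any group. EXPB9 rose in both tissues in limma's test, by a log2 change of 4.24 ± 0.80 in the stigma (SE, adjusted p = 0.00134) and 5.21 ± 0.72 in the ovary (adjusted p = 0.000411). EXPB10 rose in the stigma (1.76 ± 0.41, adjusted p = 0.00566), and in the ovary its change was 0.75 ± 0.37 (adjusted p = 0.263). The part of pollen RNA in the PSK4 and PSK2 values was not tested.

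The PSK genes and the pollen pair did not move together on all arrays. In the stigma at 5 min PSK4 and the pair were both high, while the PSK2 arrays overlapped with the unpollinated ones. In pistils the pair spanned 12.5-fold, from 1.58 to 19.8, while PSK4 spanned 1.56-fold. The pistil array with the lowest EXPB9, replicate 3 at 40 to 50 min (1.46), had the highest PSK4 of any pistil array (1.81). The unpollinated stigma read 2.35 to 4.38 for EXPB9 and had PSK4 near the array median. In the ovary at 5 min the array with the most EXPB9, replicate 2 (19.5), had the most PSK4 (0.792) and the least PSK2 (4.73).

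**Figure D3:**
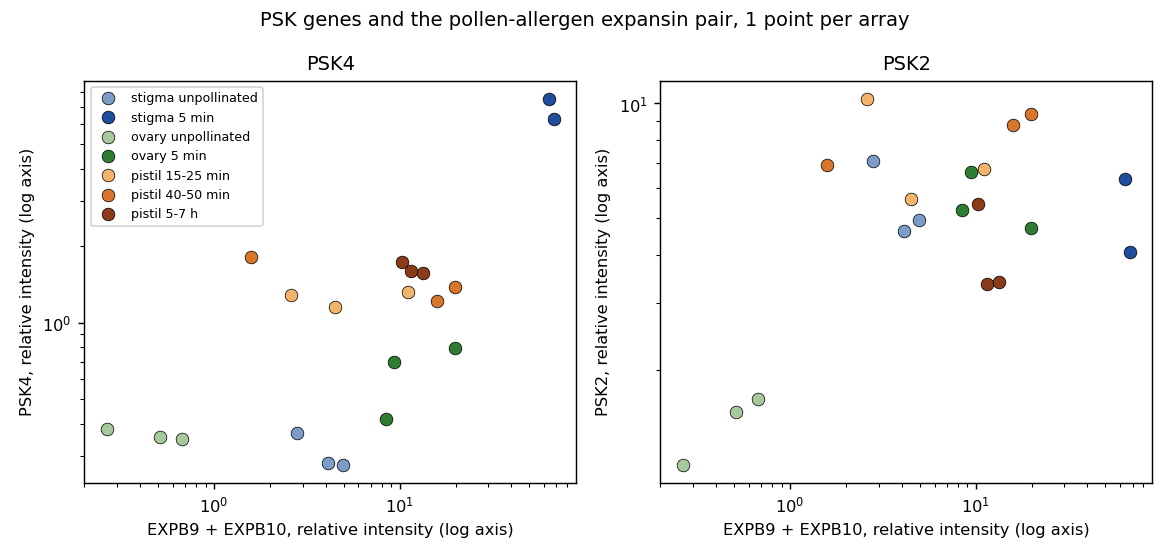
PSK4 (left) and PSK2 (right) against the summed relative intensity of EXPB9 and EXPB10, both axes logarithmic, 1 point per array coloured by group. The 5-min stigma arrays are high on both axes for PSK4. The 9 pistil arrays span 1.16 to 1.81 for PSK4 and a wider range for the expansin pair (1.58 to 19.8).

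Other floral tissues were checked beside the rise of PSK2 in the ovary, since PSK2 was high in the stigma. DL, a carpel identity gene, read 12.9 to 21.6 in unpollinated stigma, 3.82 to 6.71 in unpollinated ovary and 4.45 to 7.62 in the ovary at 5 min, where the last ranges overlap. The 5 carpel and ovule genes summed to 70.6 to 79.8 in the unpollinated ovary and 72.7 to 84.7 in the ovary at 5 min. This sum mixes genes higher in unpollinated stigma (DL and MADS58) with genes higher in unpollinated ovary (MADS13 and MADS21). It therefore cannot show a change in tissue make-up. The stamen and lodicule genes, of which 3 had a probe set (MADS2, MADS4 and MADS16), summed to 26.7 to 58.3 in the unpollinated ovary and 29.4 to 34.9 at 5 min. In the stigma they summed to 117 to 129 before and 67.5 to 93.8 at 5 min. Of these 3, 2 were called lower in the stigma at 5 min, and none was called in the ovary. The 6 tapetum and anther wall probe sets summed to 1.95 to 2.07 in the unpollinated ovary and 2.15 to 2.54 in the ovary at 5 min. Their stigma sums were 2.55 to 3.58 before and 3.25 to 3.71 at 5 min. Of the 6, 3 were tested and none was called in either 5-min comparison, in which 22% (stigma) and 5.9% (ovary) of all tested probe sets were called. The part of stigma tissue in the ovary samples was not tested beyond these genes.

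Of the rest of the phytosulfokine family, the naming table lists PSK1 and PSK5, and PSK5 alone has a named probe set (gene LOC4351500). PSK5 is not one of the genes picked for their levels, and limma's test across all 35470 tested probe sets, with Benjamini-Hochberg adjustment, was applied to it. It was lower in unpollinated stigma (7.75, 4.79 and 26.0) than in unpollinated ovary (29.1, 27.4 and 15.3), by a log2 change of -1.22 ± 0.39 (SE, adjusted p = 0.0235), although replicate 3 of the stigma lay within the ovary range. In that comparison 32.8% of tested probe sets were called in either direction. The call was lost without any 1 of unpollinated stigma replicate 1 (-1.05) or 2 (-0.70) or unpollinated ovary replicate 1 (-1.05) or 2 (-1.10), with array weights (-0.99) and in a fit of only those groups (-1.22). Without stigma replicate 3 the log2 change was -1.92. The ovule genes MADS13 and MADS29 read 1.13 and 0.123 in that replicate, no higher than in the other unpollinated stigmas. The cause of its high PSK5 value was not tested.

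No change of PSK5 after pollination passed the test at 5 min. Its 5-min arrays read 8.76 and 9.45 in the stigma and 23.1, 26.1 and 28.4 in the ovary. The log2 changes were -0.12 ± 0.44 (SE, adjusted p = 0.909) in the stigma and 0.16 ± 0.39 (adjusted p = 0.901) in the ovary, and the difference between the tissues was -0.28 ± 0.59 (adjusted p = 0.928). The pistil arrays lay between 18.8 and 27.3 at all stages, within the range of the unpollinated ovary. Against the unpollinated stigma PSK5 was higher at all 3 pistil stages in limma's test, by log2 changes of 1.35, 1.32 and 0.97 (SE 0.39 each, adjusted p = 0.0142, 0.0163 and 0.0465), although the arrays overlapped. The share of probe sets called against the unpollinated stigma alone was not counted, and these calls were not checked under other settings. No stage differed from both unpollinated tissues. The log2 changes against the ovary were 0.12, 0.10 and -0.25 (SE 0.39 each, adjusted p = 0.906, 0.927 and 0.708), and 6%, 3.97% and 16% of tested probe sets were called against both tissues at the 3 stages.

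Genes that act after the precursors were sparsely named. The symbols searched for phytosulfokine receptors, the tyrosine sulfotransferase and the processing proteases matched no gene of the naming table, so those steps were not analysed here. The 2 co-receptor genes found were BAK1 (also OsSERK1), a receptor kinase that partners several leucine-rich repeat receptors, and the SERK-like gene SERL2 (BAK1-7). Neither was called in any of the 9 comparisons with limma, in which between 0% (pistils at 40 to 50 min against 15 to 25 min, with 1033 probe sets at an unadjusted p under 0.05) and 32.8% of tested probe sets were called. At an unadjusted p under 0.05 there was 1 result for the pair, the 5-min contrast of the tissues for SERL2, at a log2 difference of 0.73 ± 0.28 (SE, adjusted p = 0.272), where 12.5% of tested probe sets were under that unadjusted p and 1.37% were called. SERL2 was called lower in unpollinated stigma than ovary after quantile normalization (-0.59) and median centring (-0.54), against -0.22 ± 0.19 (SE) as deposited. BAK1 read 4.85 ± 1.11 (SD, n = 3) in unpollinated stigma, 3.89 at 5 min (mean of 2 arrays), 4.92 in unpollinated ovary and 4.88 in the ovary at 5 min. Its largest log2 change among these comparisons was -0.29 ± 0.16 (SE, adjusted p = 0.235), in the stigma at 5 min, which became a call without unpollinated stigma replicate 3 (-0.49).

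Of 3 other secreted peptide genes with a tested probe set, 2 rose from the fertilization to the zygote stage. MIL2 (TDL1A), which in rice limits the number of cells that enter sporogenesis, rose from 0.220 at 40 to 50 min to 0.604 at 5 to 7 h, a log2 change of 1.45 ± 0.27 (SE, n = 3 each, adjusted p = 0.00105), where 18% of tested probe sets were called in either direction. It was also above both unpollinated tissues, by a log2 change of 0.99 ± 0.27 or more (adjusted p = 0.00566 in the weaker comparison), where 16% of tested probe sets were called. MIL2 was dim, with 1 of 3 arrays above the array median in each unpollinated tissue and at 40 to 50 min. Its relative TDL1B has 2 probe sets, of which 1 was tested. The untested one was never above the array median and showed neither change given below. Its means were 0.143 at 40 to 50 min, 0.114 at 5 to 7 h, 0.232 in unpollinated stigma and 0.272 in the 5-min stigma. The tested one rose by a log2 change of 1.06 ± 0.32 from 40 to 50 min to 5 to 7 h (adjusted p = 0.0279). That call was lost on leaving out either of 2 arrays at 40 to 50 min (replicates 1 and 3) or any array at 5 to 7 h, at log2 changes of 0.93 to 1.14, and with no filter on low values (1.06, adjusted p = 0.0654). TDL1B fell in the stigma at 5 min (-1.32 ± 0.36, adjusted p = 0.0138), against 22% of tested probe sets called there, and lost that call without unpollinated stigma replicate 2 (-0.94) or 5-min stigma replicate 1 (-0.92), with scaling on probe sets bright on every array (-1.09), with array weights (-1.28) and in a fit of only those groups (-1.32). FOS1 (CLE202), a peptide that restrains the shoot meristem in rice, was called higher in unpollinated stigma than ovary (1.57 ± 0.48, adjusted p = 0.0191), although the arrays overlapped. Of all tested probe sets, 32.8% were called in that comparison in either direction. FOS1 was at the floor of 0.128 on 2 of the 3 unpollinated ovary arrays, so the size of this change depends in part on the floor. The call was lost without stigma replicate 3 (0.82) or without ovary replicate 1 or 3 (1.44 each). It was also lost with the floor at the 40th percentile (1.17) and in a fit of only those groups (1.57). None of these 3 genes was called with limma in the 5-min ovary comparison, where 5.9% of tested probe sets were called. Of the 3, FOS1 alone had an unadjusted p under 0.05 there, as did 20.6% of tested probe sets, at a log2 difference of 1.10 ± 0.48 (SE, adjusted p = 0.201). That difference rests on the same unpollinated ovary arrays at the floor.

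The genes most like each member were taken from 2837 other tested probe sets with a gene symbol, by Pearson correlation of log2 values over the 20 arrays, which share their groups and scaling. For PSK4 these were the chitinase gene Cht6 (r = 0.91), the cellulose synthase gene CESA2 (0.91), ILL6, of a family that releases auxin from amino acid conjugates (0.87), the transporter gene ABCG39 (0.87), OsPHR3, of the phosphate starvation response factors (0.87), the calmodulin-like gene CML5 (0.86), ELA3 (0.86) and cbp3 (0.85). Over the 7 group means the same genes correlated at 0.86 to 0.97. The least like were the jasmonate receptor gene COI1B (-0.87), IRL6 (-0.85), the hexokinase gene HXK4 (-0.84) and NCL1 (-0.82). Of the 2837 probe sets, 2 exceeded r = 0.9 with PSK4.

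For PSK2 the likeness was looser, and no probe set with a symbol exceeded 0.9. The nearest were the homeobox gene OSH43 (0.80), the protein kinase gene CIPK23 (0.79), MtN3-like (0.78), the phosphatase gene OsPP2C12 (0.78), the defence gene PBZ1 (0.78), APR-like1 (0.77), CYP724B1 of brassinosteroid synthesis (0.77) and PAL, which opens phenylpropanoid synthesis (0.77). PBZ1 read 0.753 to 2.04 in unpollinated stigma and 7.28 to 13.8 in the ovary at 5 min, 2 groups in which the PSK2 arrays overlapped. The least like were BC1L2 (-0.75), the chitin receptor gene CEBIP (-0.73), CARM1 (-0.69) and SCAMP5 (-0.68). No gene was among the 8 nearest to both members. PSK2 and PSK4 correlated with each other at 0.37, and with PSK5 at 0.03 and -0.09.

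**Figure D4:**
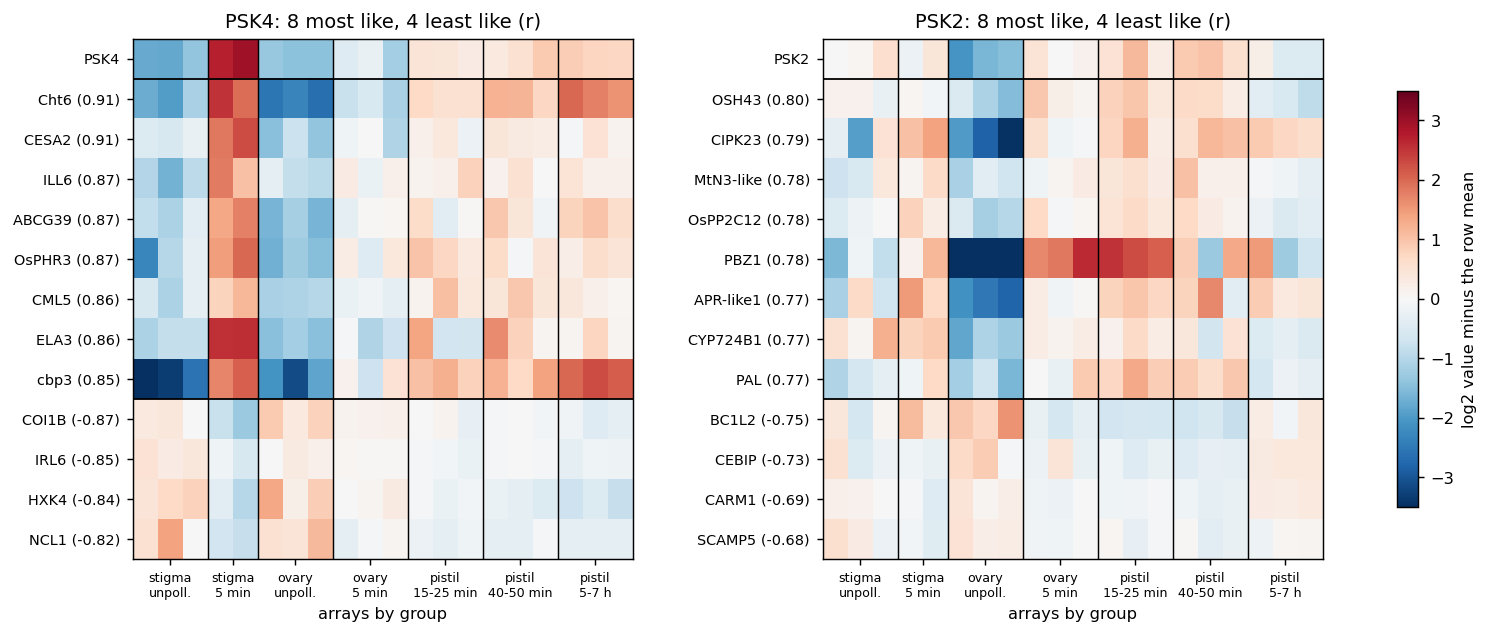
Log2 values minus the row mean on each array, ordered by group, for PSK4 and PSK2 (top rows) with the 8 genes most like and the 4 least like each, Pearson r over 20 arrays in brackets. Of the 8 genes most like PSK4, all but cbp3 have their highest group mean in the 5-min stigma (cbp3 has it in pistils at 5 to 7 h), and the 8 most like PSK2 have their lowest in the unpollinated ovary.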

How the data were processed

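Relative intensities of 57381 probe sets on 20 Affymetrix Rice Genome Arrays were analysed as the authors deposited them. Per the labels' protocols, biotin-labelled cRNA was hybridised, and GCOS version 1.3 is named per the submitters' processing notes. In the deposited table the 75th percentile of every array is 1, and the program and background correction behind this scaling are not given in the sources used here. The number of arrays limits the precision.

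Control probe sets (187) were left out. A floor was set at 0.128, the 20th percentile of all values, log2 was taken, and the 35470 probe sets above their array's median on at least 2 arrays were fitted with limma 3.58.1 (R 4.3.3), with means of 7 groups, 13 residual degrees of freedom and a variance trend. P-values were adjusted by Benjamini-Hochberg within each of 9 comparisons and called at 0.05. Against the unpollinated tissues, a pistil call needed both tissues in the same direction. A fold is a ratio of geometric means. The fit was tested on simulated data.

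Of all probe sets, 22436 have 1 gene in the platform annotation, 95 several and 34850 none, and only those with 1 gene were named. Symbols and synonyms came from RefSeq, and each named gene was PSK2, PSK4, a family member, a co-receptor, a called peptide gene, a marker, or among the 8 most and 4 least like by correlation. BAK1 and SERL2 were named as the only pathway genes found. The members and lists were chosen with earlier results of these data known. Alternatives were other scalings, filters and floors, no trend, only the groups compared, array weights, the replicate number as a block, and each array left out in turn.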

Additional observations from a re-analysis of the deposited data

How the results depend on the processing

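Over 11 alternative settings, 182 of 187 log2 differences of PSK4 and PSK2 moved by less than the spread between replicates (1 SD), and 5 moved further. With scaling on probe sets bright on every array, PSK4 was 4.72 higher in the 5-min stigma. Between unpollinated stigma and ovary the PSK4 difference was -0.47 after quantile normalization, -0.56 after median centring and -0.44 with scaling on bright probe sets, and that of PSK2 was 1.60 after median centring. In that comparison quantile normalization shifted the median of all probe sets by -0.19, median centring by -0.31 and bright scaling by -0.19, and bright scaling shifted it by 0.23 in the 5-min stigma. On leaving out 1 array, PSK4 ranged over 4.35 to 4.62 in the 5-min stigma and 0.58 to 1.04 in the 5-min ovary, and PSK2 over -0.41 to 0.22 and 1.76 to 2.05. PSK2 between the early pistil stages was -0.0030 without pistil 15 to 25 min replicate 3, against 0.19 with it. PSK2 at 5 to 7 h had opposite signs against the 2 unpollinated tissues, so no joint value was formed.

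Of the 6 tested PSK5, co-receptor and peptide probe sets, 1 was called in the 5-min stigma, and 0 with bright scaling, with only the groups compared and with array weights (0 to 2 on leaving out an array). Between the unpollinated tissues 2 were called, against 4 after median centring, 1 with the filter at the 75th percentile, the floor at the 40th percentile or array weights, and 0 with only the groups compared (0 to 2 on leaving out an array). At 5 to 7 h against both unpollinated tissues 1 was called, against 0 with the stricter filter and 2 with array weights (1 to 2). From 40 to 50 min to 5 to 7 h 2 were called, and 1 with no filter or with the stricter filter (1 to 2). The cause was not tested. Of 824 values of these genes 22 lost a call, 7 gained one and 0 reversed. Over all tested probe sets the 5-min stigma had 7810 calls, 1270 with only the groups compared and 3252 with array weights.

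Same-numbered arrays correlated at -0.26 to 0.43 in their deviations over 39 pairs, 13 of them over 0.1. Differently numbered arrays were not compared, so these values cannot show whether the numbers pair samples. The main fit used no pairing. With the replicate number as a block, PSK4 was 4.47 higher in the 5-min stigma, PSK2 was 1.93 higher in the 5-min ovary, and no call of the 6 genes changed in 48 values.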
